A study of Saccharomyces cerevisiae with 48 samples.

Results

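The third transcript cycle after phenelzine was set against the second in 1 continuous culture of the budding yeast Saccharomyces cerevisiae, strain IFO0233. The third cycle was taken as phenelzine replicates 26 to 37, sampled 100 to 144 min after the first phenelzine array and labelled 16.2 to 17.0 h after inoculation. The second cycle was taken as replicates 13 to 24, sampled 48 to 92 min after it and labelled 15.4 to 16.1 h. Each holds 12 arrays at steps of 4 min, and each third-cycle array was paired with the second-cycle array 52 min earlier, so that 24 of the 48 arrays of the series form 12 pairs. Phenelzine, a monoamine oxidase inhibitor, was present in both groups; its dose is not stated in the sources used here. The 11 control arrays, labelled 13.8 to 14.5 h, and the 12 arrays that opened the treatment serve only as context. The series was made to ask whether a perturbation lengthens the cycle to a doubled period.

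The pairs and the lag were chosen from cycle lengths measured on these same arrays, so the match between paired arrays is a description and narrows the spread within pairs. Deviations of each array were taken from the mean over all 37 phenelzine arrays, so a level difference between the cycles stays in them. Across 5372 tested probe sets, these deviations correlated within pairs at 0.69 on average over the 12 pairs, from 0.54 to 0.81. Just outside the chosen lag the mean correlation was 0.57 at 48 min and 0.54 at 56 min, and it was 0.32 at 44 min and 0.25 at 60 min. The phase of each array, measured as the angle of the leading pair of principal components, still differed within pairs. Taken as the third cycle minus the second, it was 29.8 degrees at the first pair, 4 degrees at pair 6 and -24.5 degrees at pair 9, and then 0.6 and -0.5 degrees at pairs 11 and 12. The difference exceeded 10 degrees in size at pairs 1 to 4 and 8 to 10.

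In dense continuous culture budding yeast alternates between phases of high and low oxygen consumption, and much of its transcriptome is turned on and off with them. Genes of ribosome assembly, sulfur and amino acid synthesis peak in one part of such a cycle, and genes of mitochondria and of storage, fat use and stress peak in others. The glycine cleavage system, a mitochondrial enzyme of several subunits, splits glycine and loads a one-carbon unit on folate, which purine, serine and methionine synthesis draw on.

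Some measures of the arrays differed between the cycles and others hardly did. Median deposited intensity was between 38.3 and 78.8 (median 60.8) on third-cycle arrays and between 32.4 and 71.7 (median 59.3) on second-cycle arrays. Quantile normalization over all 48 arrays removed differences in intensity. The log2 ratio of the 3′ to the 5′ probe set of dap, a Bacillus subtilis control transcript, had a lowest value of 2.16, a median of 2.38 and a highest of 2.85 on third-cycle arrays, against 1.43, 1.72 and 2.46 on second-cycle arrays. Array numbers run in order of sampling and skip number 91. Second-cycle arrays after the skipped number averaged 2.23 ± 0.247 (SD, n = 3) for that ratio and those before it 1.66 ± 0.127 (SD, n = 9). All third-cycle arrays lie after it, so 9 pairs span the skipped number and 3 pairs (the last 3, replicates 35 to 37 with 22 to 24) lie wholly after it; their values are given beside the main results. Probe sets of the fission yeast Schizosaccharomyces pombe, which have no target in this culture, had a median log2 of 1.58 to 2.34 on third-cycle arrays and 1.17 to 2.43 on second-cycle arrays. What part the array measures had in any difference was not tested. With 1 culture, neighbouring samples take the place of replicates, and each p-value covers no more than the spread from pair to pair. No untreated culture covered the same hours, so drug and culture time cannot be told apart, nor can fewer cells of a state and less RNA per cell.

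Level differences between the cycles were small, and those that passed the test went in both directions. In the paired limma fit, 883 of 5372 probe sets differed at a Benjamini-Hochberg adjusted p under 0.05, or 16.4%. Of these, 485 were higher in the third cycle (9.03%) and 398 lower (7.41%). The median absolute difference of the called probe sets was 0.168 on the log2 scale, 16 exceeded 0.5 and 0 exceeded 1. Over all tested probe sets the median difference was 0.006, with quartiles of -0.06 and 0.074. In 72 of the higher and 59 of the lower calls all 12 pairs had the same sign. The calls depended on the pairing and on where the pairs lie. Without the pair as a block 17 probe sets passed, with windows of 3 neighbouring pairs as a random block 318, in the 9 spanning pairs alone 1141 (21.2%) and in the 3 later pairs alone 2 (0.0372%), with 584 at an unadjusted p under 0.05. Of the 646 probe sets called higher in the 9 spanning pairs, 409 (63.3%) had that sign in the 3 later pairs, with a median of 0.04 there against 0.18 in the spanning pairs. Of the 495 called lower, 294 (59.4%) had that sign there. Over all tested probe sets 56.7% had the same sign in both sets of pairs. The 2 calls in the later pairs were GCV1 and YCT1, a cysteine transporter gene. The difference between spanning and later pairs itself passed for 5 probe sets (0.0931%), with 807 at an unadjusted p under 0.05.

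**Figure D1:**
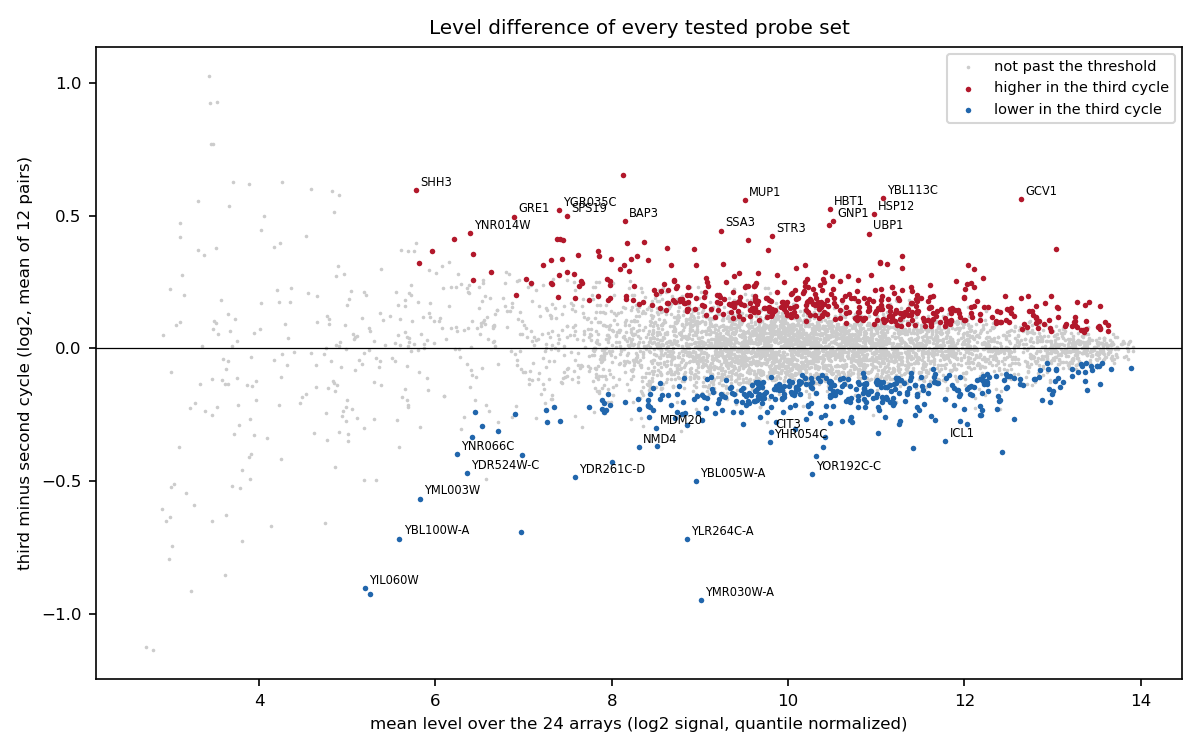
Log2 difference, the third cycle minus the second (mean of 12 pairs, vertical axis), against the mean log2 level over the 24 arrays (horizontal axis) for each tested probe set. The 485 red points are higher and the 398 blue points lower in the third cycle, none of the called points exceeds 1 in size, and the named genes are the 15 largest in each direction with that sign in at least 11 of 12 pairs.

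The smallest adjusted p of the comparison belonged to a gene of the glycine cleavage system. GCV1 (YDR019C), which encodes its aminomethyltransferase (T) subunit, had a lowest log2 level of 12.64, a median of 12.84 and a highest of 13.27 in the third cycle, against 11.91, 12.28 and 12.71 in the second. The groups overlapped only where the top of the second cycle met the bottom of the third, and GCV1 was higher in 12 of 12 pairs. The difference was 0.56 ± 0.03 (SE, 12 pairs), a 1.48-fold higher level, with a limma adjusted p of 7.2e-09. It was 0.55 in the 9 spanning pairs and 0.62 in the 3 later pairs, where its adjusted p in the fit on those pairs alone was 0.024. Its call held under each of the 32 alternatives run, with differences from 0.52 to 0.77 and a highest limma adjusted p of 0.024. The alternatives overlap, and the fit with a covariate for the skipped number has the same estimate as the later pairs alone. In order of time, GCV1 averaged 11.62 ± 0.20 over the 11 control arrays, 11.79 ± 0.33 over the 12 opening phenelzine arrays, 12.36 ± 0.24 in the second cycle and 12.93 ± 0.22 in the third (SD over arrays), each mean above the one before.

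GCV2 (YMR189W), the glycine dehydrogenase (P) subunit, ran from 12.99 through a median of 13.22 to 13.44 in the third cycle, against 12.43, 12.75 and 13.33 in the second. It was higher in 12 of 12 pairs by 0.37 ± 0.05 on the log2 scale (SE; limma adjusted p = 0.00061). Between 4 and 20 min into the cycle the difference was 0.52 to 0.67, and from 32 to 40 min it was 0.14 or less; second-cycle levels reached 13.25 at 32 min, and third-cycle levels were at 12.99 or above throughout. The 3 later pairs gave 0.15 and the 9 spanning pairs 0.45. Of 16 tested genes of glycine cleavage and one-carbon metabolism 5 rose (31.2%, against 9.06% of all tested genes) and 1 fell (6.25%, against 7.37%). The other 3 that rose were GCV3, the H subunit, MTD1, a methylenetetrahydrofolate dehydrogenase, and SHM2, the cytosolic serine hydroxymethyltransferase. The list's median difference was -0.004, and 0.067 with each array centred on its median, so the list as a whole had no settled direction. The gene that fell was SER3, phosphoglycerate dehydrogenase of serine synthesis, with 9.25, 9.57 and 12.23 (lowest, median, highest log2) in the third cycle, against 9.51, 10.17 and 12.38 in the second, a difference of -0.37 (limma adjusted p = 0.015). SER3 had -0.53 in the spanning pairs and 0.10 in the later pairs.

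**Figure D2:**
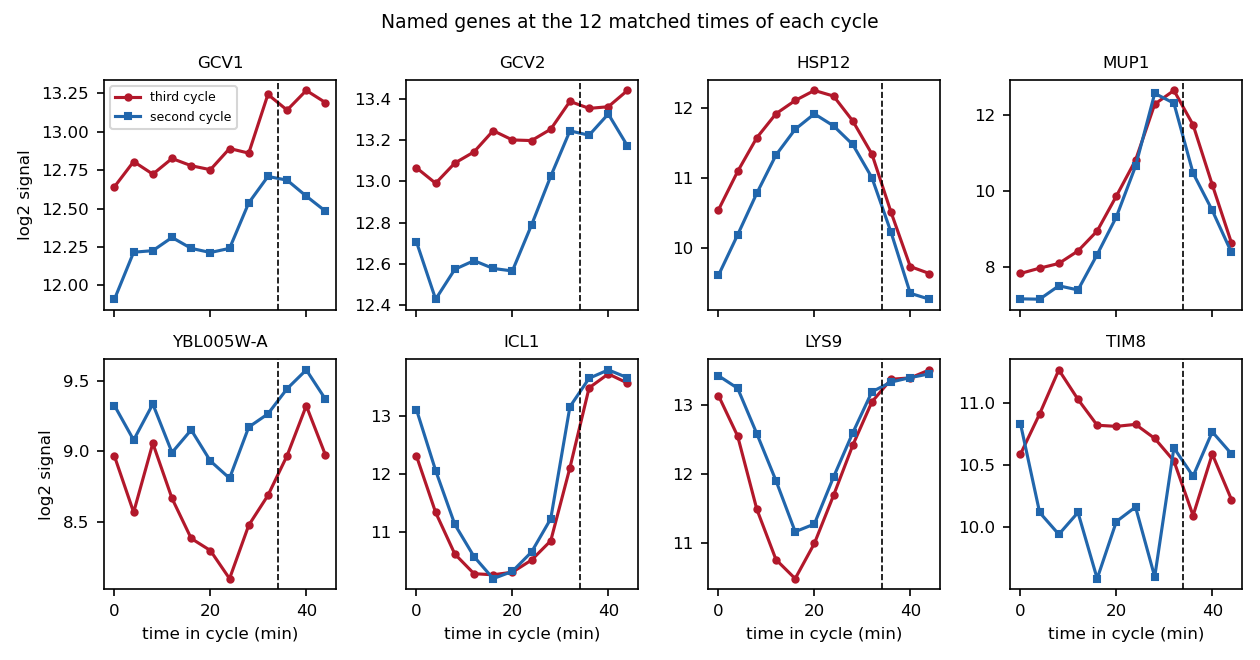
Log2 level (vertical axes) of 8 genes at the 12 matched times of each cycle (horizontal axis, min from its first array), the third cycle in red and the second in blue. To the right of the dashed line the second-cycle arrays also lie after the skipped array number; GCV1 stays 0.32 to 0.73 higher in the third cycle on both sides of it, whereas TIM8 and LYS9 differ mainly to its left.

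Purine synthesis, which uses one-carbon units to build the adenine and guanine ring, was higher at several steps. Of its 18 tested genes 8 rose (44.4%, against 9.06% of all tested genes) and 0 fell (against 7.37%). The median difference over the list was 0.05, and 0.10 in the 3 later pairs. With arrays centred on their medians 4 rose and 0 fell. ADE2, the aminoimidazole ribonucleotide carboxylase, had 12.08, 12.18 and 13.09 (lowest, median, highest log2) in the third cycle, against 11.79, 11.90 and 12.67 in the second. It was 0.27 ± 0.04 higher (SE; limma adjusted p = 0.00061, 11 of 12 pairs) and 0.25 higher in the later pairs. ADE8, glycinamide ribonucleotide transformylase, had 11.96, 12.07 and 12.62 in the third cycle, against 11.57, 11.93 and 12.36 in the second. Its difference was 0.25 (adjusted p = 0.0013), and 0.33 in the later pairs. ADE4, which catalyses the committed step, was 0.22 higher over 12 pairs (limma adjusted p = 0.0035), 0.22 in the 9 spanning pairs and 0.19 in the later pairs. The groups of all 3 genes overlapped in range, while 11 of 12 pairs had the higher value in the third cycle.

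In sulfur metabolism, genes of methionine and cysteine synthesis and uptake passed the test in both directions. Of 24 genes 3 were higher (12.5%, against 9.06% of all tested genes) and 4 lower (16.7%, against 7.37%), with a list median of -0.03. The 3 that rose were MUP1, STR3 and MET2, and the 4 that fell were MET17, SAM2, HOM2 and STR2. MUP1, the high-affinity methionine permease, had 7.82, 9.41 and 12.66 (lowest, median, highest log2) in the third cycle, against 7.14, 8.85 and 12.58 in the second. The lowest values lay farther apart than the highest, and 11 of 12 pairs were higher, by 0.56 ± 0.10 on average (SE; limma adjusted p = 0.002) and by 0.74 in the 3 later pairs. STR3, cystathionine beta-lyase, had 8.06, 9.75 and 12.95 in the third cycle, against 7.50, 9.20 and 12.70 in the second, a difference of 0.43 (adjusted p = 0.0023) and of 0.48 in the later pairs. MET2, homoserine acetyltransferase, was 0.21 higher (adjusted p = 0.028) and 0.27 in the later pairs, but -0.02 with the measured phase in place of the pair (adjusted p = 0.92). Of 10 genes of sulfate uptake and reduction 0 rose and 1 fell, the sulfate permease SUL1, with 8.79, 10.51 and 13.16 in the third cycle, against 9.22, 11.25 and 13.16 in the second. SUL1 differed by -0.32 (limma adjusted p = 0.049), by -0.50 in the spanning and 0.24 in the later pairs, and by -0.08 with the measured phase (adjusted p = 0.51). The sulfate list had a median of -0.11, with -0.23 in the spanning pairs and 0.36 in the later pairs. MET30, the ubiquitin ligase subunit that restrains the pathway, was 0.20 higher (adjusted p = 0.011, 11 of 12 pairs), and 0.25 in the later pairs.

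Among amino acid genes, the permeases that passed the test were higher. Of 22 amino acid permeases 5 rose (22.7%, against 9.06% of all tested genes) and 0 fell (against 7.37%). The 5 that rose were MUP1, GNP1, BAP3, TAT2 and AGP1. GNP1, a glutamine permease, had 9.35, 10.93 and 12.05 (lowest, median, highest log2) in the third cycle, against 8.73, 10.50 and 11.73 in the second, and was higher in 12 of 12 pairs by 0.48 ± 0.07 (SE; limma adjusted p = 8e-04). BAP3, a branched-chain amino acid permease, had 7.20, 8.19 and 10.07 in the third cycle, against 6.50, 7.93 and 9.48 in the second, again higher in 12 of 12 pairs, by 0.48 ± 0.06 (adjusted p = 4e-04). In the later pairs GNP1 was 0.29 and BAP3 0.40 higher.

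Of the 46 gene lists, lysine synthesis had the largest share of lower genes. Of 9 tested genes 4 fell (44.4%, against 7.37% of all tested genes) and 0 rose (against 9.06%). All 9 had a negative difference, with a median of -0.16. That median was 0.02 in the 3 later pairs, 0 of the 9 passed when arrays were centred on their medians, and 1 passed with the measured phase in place of the pair. LYS9, saccharopine dehydrogenase, had 10.48, 12.48 and 13.51 (lowest, median, highest log2) in the third cycle, against 11.16, 12.89 and 13.45 in the second. Its levels met at the top of the cycle and differed most on the way down, by -1.15 on the log2 scale at 12 min. At 16 min, the lowest array of both cycles, the difference was -0.68. The mean difference was -0.39 ± 0.10 (SE; limma adjusted p = 0.014), -0.53 in the spanning and 0.03 in the later pairs, and -0.14 with the measured phase (adjusted p = 0.27). LYS12, homoisocitrate dehydrogenase, differed by -0.23 (adjusted p = 0.011; 0.015 in the later pairs) and LYS21, a homocitrate synthase, by -0.15 (adjusted p = 0.022; -0.14 in the later pairs), and the remaining gene that fell was LYS14, the activator of the pathway.

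Other amino acid pathways followed with fewer calls. Of 13 branched-chain genes 2 fell (15.4%, against 7.37% of all tested genes), LEU1 and ILV3. Of 15 aromatic genes 2 fell (13.3%), TRP3 and TYR1, with 0 higher in either list. ILV3, dihydroxyacid dehydratase, was lower in 12 of 12 pairs, by -0.15 (limma adjusted p = 0.0063), with -0.02 in the later pairs. Histidine synthesis had 1 of 8 genes higher (12.5%), HIS7, and 1 lower (12.5%), HIS3. None of 12 tested arginine genes passed in the limma fit, against 16.4% of all tested genes in either direction. At an unadjusted p under 0.05, 2 of the 12 were higher and 5 lower. Over all tested probe sets 1767 of 5372 passed that unadjusted threshold in either direction. The largest difference among the arginine genes was that of ARG8, at -0.22 (adjusted p = 0.059). ARG8 passed at 0.04 without pair 5 and at 0.032 with the measured phase. Among 24 genes of nitrogen use 0 rose and 4 fell (16.7%), the allantoin pathway genes DAL5 and DAL7, the ammonium permease MEP2 and the activator GLN3. DAL5, an allantoate permease, had 9.87, 11.35 and 11.92 in the third cycle, against 10.08, 11.75 and 12.03 in the second, a difference of -0.29 (limma adjusted p = 0.0027), and of -0.33 in the later pairs.

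Several genes of the stress response were higher in the third cycle. HSP12, a small membrane-binding stress protein, had 9.64, 11.46 and 12.24 (lowest, median, highest log2) in the third cycle, against 9.28, 10.89 and 11.91 in the second. It was higher in 12 of 12 pairs, by 0.51 ± 0.06 (SE, 1.42-fold; limma adjusted p = 0.00023). The gap was widest while the gene was climbing, 0.93 at the first pair, and 0.42 or less from 20 min on, and with the measured phase in place of the pair it was 0.24 (adjusted p = 0.0045). In the later pairs HSP12 was 0.34 higher. HBT1, whose protein is a target of the ubiquitin-like Hub1, had 8.70, 11.13 and 12.11 in the third cycle, against 8.25, 10.50 and 11.68 in the second, higher in 12 of 12 pairs by 0.52 (limma adjusted p = 0.00096), by 0.39 in the later pairs and by 0.23 with the measured phase (adjusted p = 0.0096). GRE1, a hydrophilic stress-induced protein, was 0.50 higher (adjusted p = 0.002, 12 of 12 pairs) and 0.48 in the later pairs. SSA3, a stress-inducible Hsp70 chaperone, was 0.44 higher over 12 pairs (limma adjusted p = 0.0016) and 0.08 in the later pairs.

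Of 29 heat shock and chaperone genes 6 rose (20.7%, against 9.06% of all tested genes) and 3 fell (10.3%, against 7.37%). The list median was -0.02. The 3 that fell were the constitutive chaperones SSA2, SSB2 and SSE1, so the list did not move one way. Oxidative defence had 7 of 29 genes higher (24.1%) and 0 lower, among them GTT1, a glutathione transferase, at 0.19 (limma adjusted p = 0.002, 12 of 12 pairs), GRE2 at 0.24 and the peroxidase HYR1 at 0.16. With the measured phase GRE2 had an adjusted p of 0.44 and HYR1 of 0.062. In the later pairs GTT1 was at 0.10, GRE2 at 0.16 and HYR1 at 0.04, and with arrays centred on their medians 1 gene of this list rose and 0 fell.

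The proteasome is the protease that degrades ubiquitin-tagged proteins. Of its 33 genes 11 were higher (33.3%, against 9.06% of all tested genes) and 0 lower (against 7.37%). Its list median was 0.07, with 0.10 in the spanning pairs and -0.002 in the later pairs, and with arrays centred on their medians 1 gene passed. PRE7, a catalytic-core beta subunit, had 11.95, 12.23 and 12.51 (lowest, median, highest log2) in the third cycle, against 11.65, 11.99 and 12.27 in the second. It was higher in 11 of 12 pairs, by 0.23 (limma adjusted p = 0.00096), and by 0.19 in the later pairs. PRE6, an alpha subunit, was 0.19 higher (adjusted p = 0.00074, 12 of 12 pairs) and 0.09 in the later pairs. RPN10, a ubiquitin receptor of the regulatory particle, was 0.16 higher over 12 pairs (adjusted p = 0.015) and -0.002 in the later pairs. UBP1, a ubiquitin-specific protease, had 10.31, 11.11 and 11.99 in the third cycle, against 10.14, 10.66 and 11.48 in the second, a difference of 0.43 (limma adjusted p = 0.0015), but 0.07 in the later pairs.

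Cell wall and multidrug resistance genes had shares of higher calls above the 9.06% of all tested genes. Among 35 cell wall genes 11 rose (31.4%) and 1 fell (2.86%), with a list median of 0.04, and -0.03 in the later pairs. SPI1, a wall protein of stationary cells, had 7.68, 8.31 and 8.92 (lowest, median, highest log2) in the third cycle, against 7.34, 8.05 and 8.46 in the second, a difference of 0.32 (limma adjusted p = 0.0018), and 0.29 in the later pairs. PIR3, a wall glycoprotein, was 0.28 higher (adjusted p = 0.012), with 0.09 in the later pairs. GAS3, of the glucan-remodelling family, fell by 0.21 on the log2 scale (adjusted p = 0.002) and had -0.24 in the later pairs. With arrays centred on their medians 1 wall gene rose and 1 fell.

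Of 23 genes of multidrug resistance 7 rose (30.4%) and 0 fell. The list holds pumps that move foreign compounds and lipids across the membrane, but also regulators, and 1 of the 7 was the regulator PDR1. The list's median difference was 0.07, with 0.13 in the spanning and -0.04 in the later pairs. RSB1, linked to export of sphingoid bases, had 9.24, 10.69 and 11.08 in the third cycle, against 9.09, 10.15 and 10.89 in the second, higher in 12 of 12 pairs by 0.31 (limma adjusted p = 0.0023). The ABC transporters PDR10 and YOR1 were 0.27 (adjusted p = 0.0018) and 0.24 (adjusted p = 0.0073) higher, each in 12 of 12 pairs. In the later pairs RSB1 was at 0.09, PDR10 at 0.15 and YOR1 at 0.07. Of 11 genes of polyamine synthesis and oxidation, the pathway nearest to amine oxidases, 1 rose (9.09%, against 9.06% of all tested genes). This was the exporter TPO1, also counted in the multidrug list. In the polyamine list 2 fell (18.2%, against 7.37%), spermidine synthase SPE3 and antizyme OAZ1. OAZ1 differed by -0.19 (limma adjusted p = 0.0086) and by -0.13 in the later pairs. Ergosterol synthesis had 3 of 26 genes lower (11.5%), ERG13, MVD1 and ERG26, at -0.16 to -0.12, and 0 higher. Low-oxygen genes had 4 of 21 higher (19%) and 1 lower (4.76%). DAN4, a wall mannoprotein among them, was 0.25 higher (adjusted p = 0.0027, 11 of 12 pairs) and 0.17 in the later pairs. Fatty acid and phospholipid synthesis had 1 of 24 genes higher (4.17%) and 2 lower (8.33%), choline kinase CKI1 and CPT1. The higher gene was the phosphatidylinositol synthase PIS1, at 0.19 (adjusted p = 0.0082) and at 0.26 in the later pairs. Vitamin B6 and thiamine genes had 3 of 18 higher (16.7%) and 2 lower (11.1%). TPN1, a vitamin B6 transporter, was 0.23 higher (limma adjusted p = 0.012) and 0.25 in the later pairs.

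In carbon metabolism, gluconeogenesis and the glyoxylate cycle, which let cells build sugar from acetate and ethanol, had 0 of 15 genes higher and 5 lower (33.3%): ICL1, SFC1, ADR1, IDP2 and MLS1. The list median was -0.14, with -0.16 in the spanning and -0.09 in the later pairs. With the measured phase in place of the pair the median was 0.01, 2 genes rose and 1 fell. ICL1, isocitrate lyase, had 10.25, 11.09 and 13.74 (lowest, median, highest log2) in the third cycle, against 10.18, 11.64 and 13.81 in the second. Its troughs and peaks were close, and the largest gaps lay on the slopes, -0.81 at the first pair and -1.06 at pair 9. The mean was -0.35 ± 0.08 (SE; limma adjusted p = 0.012), -0.11 in the later pairs and -0.01 with the measured phase (adjusted p = 0.96). CIT3, a mitochondrial citrate and methylcitrate synthase, was at -0.31 (limma adjusted p = 0.0085), at -0.12 in the later pairs and at -0.04 with the measured phase (adjusted p = 0.62). The tricarboxylic acid cycle had 0 of 17 genes higher and 3 lower (17.6%, against 7.37% of all tested genes). Those 3 were CIT3, pyruvate carboxylase PYC2 and aconitase ACO1. ADR1, an activator of genes for ethanol and fat use, was at -0.25 (limma adjusted p = 0.0067), at -0.28 in the later pairs and at -0.21 with the measured phase.

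Glycolysis had 2 of 16 genes lower (12.5%, against 7.37% of all tested genes), hexokinase HXK2 and the pyruvate kinase PYK2, and 0 higher. HXK2 was lower in 12 of 12 pairs, by 0.22 on the log2 scale (limma adjusted p = 0.0014), with -0.10 in the later pairs. HXT2, a glucose transporter of high affinity, had 7.27, 8.20 and 8.59 in the third cycle, against 7.04, 7.75 and 8.38 in the second, higher in 12 of 12 pairs by 0.37 (adjusted p = 0.0011) and by 0.22 in the later pairs. It was the only one of 14 tested hexose transporters and sensors past the threshold in this fit (7.14%, against 9.06% of all tested genes higher). GPD2, glycerol-3-phosphate dehydrogenase, was 0.41 higher (adjusted p = 0.011, 10 of 12 pairs) and 0.21 in the later pairs. Glycogen and trehalose had 3 of 19 genes higher (15.8%), the trehalases ATH1 and NTH2 and the phosphatase subunit GAC1.

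Among 36 genes of peroxisomes and fatty acid oxidation 3 rose (8.33%, against 9.06% of all tested genes), SPS19, POT1 and FOX2, and 1 fell (2.78%, against 7.37%), CAT2. SPS19, 2,4-dienoyl-CoA reductase, had 6.83, 7.99 and 8.28 (lowest, median, highest log2) in the third cycle, against 6.44, 7.40 and 7.79 in the second, higher in 12 of 12 pairs by 0.50 (limma adjusted p = 0.00074), and by 0.22 in the later pairs. POT1, 3-ketoacyl-CoA thiolase, was 0.40 higher in 12 of 12 pairs (adjusted p = 0.0021), and 0.21 in the later pairs. CAT2, carnitine acetyltransferase, was lower in 12 of 12 pairs, with 11.49, 12.03 and 12.62 in the third cycle, against 11.74, 12.28 and 12.83 in the second. CAT2 differed by -0.25 ± 0.03 (SE; limma adjusted p = 0.00051), by -0.37 in the later pairs and by -0.15 with the measured phase (adjusted p = 0.012). The respiratory chain and ATP synthase had 2 of 42 genes higher (4.76%), INH1 and STF1, which encode inhibitors of ATP synthase, and 3 lower (7.14%), ATP17, ATP4 and COX6. STF1 was 0.16 higher in 12 of 12 pairs (adjusted p = 0.0017), INH1 was 0.17 higher in 11 of 12 (adjusted p = 0.0041), and the ATP synthase subunit ATP17 was at -0.12 in 12 of 12 (adjusted p = 0.0045). In the later pairs STF1 was at 0.12, INH1 at 0.17 and ATP17 at -0.08. SHH3, a relative of the succinate dehydrogenase membrane anchor, was the largest higher call by the naming rule, with 3.92, 6.62 and 7.35 in the third cycle, against 2.56, 6.02 and 6.96 in the second, a difference of 0.60 (adjusted p = 0.012). With the measured phase its difference was 0.40 (adjusted p = 0.15), and in the later pairs 0.41. At pair 9 its second-cycle level, 2.56, was near the fission yeast median of that array, 2.43 before normalization. That pair differed most, by 1.58.

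The large lists of growth genes shifted little. Of 119 ribosome biogenesis genes 13 rose (10.9%, close to the background of 9.06%) and 0 fell, although all but 15 had a positive sign. Their median was 0.08, with 0.07 in the later pairs and 0.01 with the measured phase, under which 1 rose and 2 fell. RRP9, NOG2 and RRS1, all needed for assembly of the ribosomal subunits, were 0.29, 0.28 and 0.27 higher, and in the later pairs RRP9 was at 0.095, NOG2 at 0.05 and RRS1 at 0.05. Among 128 cytosolic ribosomal protein genes 2 rose (1.56%) and 14 fell (10.9%), with a median of -0.02, but 0.05 and 0 calls when arrays were centred on their medians. RPL12A, a protein of the large subunit, had 11.63, 12.36 and 12.74 (lowest, median, highest log2) in the third cycle, against 12.04, 12.51 and 12.93 in the second, a difference of -0.23 (limma adjusted p = 0.0085), and of -0.08 in the later pairs. RPS17B, of the small subunit, was lower in 12 of 12 pairs, by 0.20 on the log2 scale (adjusted p = 0.0013), and by 0.08 on its other probe set, with -0.10 in the later pairs on the first. Most of these genes have a near-identical copy, so values of single paralogs are uncertain. Of 73 mitochondrial ribosomal protein genes 4 rose (5.48%) and 5 fell (6.85%), and of 31 RNA polymerase genes 4 rose (12.9%) and 0 fell. RPO21, the largest subunit of RNA polymerase II, was 0.19 higher in 12 of 12 pairs (limma adjusted p = 0.0027) and 0.05 in the later pairs. The spliceosome had 6 of 44 higher (13.6%) and 4 lower (9.09%), and SMX3, a core Sm protein, was 0.22 higher (adjusted p = 0.0018) with 0.24 in the later pairs. Transfer RNA synthetases had 1 of 19 higher (5.26%) and 2 lower (10.5%), and mitochondrial translation 1 of 19 higher (5.26%) and 3 lower (15.8%). Over all tested genes 7.37% were lower.

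The cell cycle lists differed in their shares of calls. None of 39 DNA replication genes passed in the limma fit at the adjusted threshold, against 16.4% of all tested genes in either direction. At an unadjusted p under 0.05, 2 of the 39 were higher and 5 lower. Over all tested probe sets 1767 of 5372 passed that unadjusted threshold in either direction. The largest difference among the DNA replication genes, that of RFC1, was -0.16 with an adjusted p of 0.1. Of 28 genes of cyclins and mitosis 4 rose (14.3%, against 9.06% of all tested genes), SWI5, SIC1, CLN3 and PCL9. In the same list 1 fell (3.57%, against 7.37%), the mitotic cyclin CLB2. CLB2 had 9.90, 10.28 and 10.53 (lowest, median, highest log2) in the third cycle, against 9.99, 10.55 and 10.91 in the second, lower in 12 of 12 pairs by 0.26 on the log2 scale (limma adjusted p = 0.00076), and by 0.12 in the later pairs. SIC1, an inhibitor of the cyclin-dependent kinase, was 0.16 higher in 12 of 12 pairs (adjusted p = 0.016) and 0.14 in the later pairs. Histones had 1 of 9 higher (11.1%), HTZ1, and ribonucleotide reductase genes 2 of 9 (22.2%), RNR3 and CRT10. Autophagy had 2 of 21 higher (9.52%), ATG14 and ATG2, and 1 lower (4.76%), the kinase ATG1. ATG1 was lower in 12 of 12 pairs by 0.28 on the log2 scale (limma adjusted p = 0.0028) and had -0.29 in the later pairs. The metal and phosphate lists had 1 or 2 calls in each direction, from 3.57% to 16.7% of a list higher and from 3.57% to 8.33% lower. Among them FIT1, a wall mannoprotein that holds iron, was 0.27 higher in 12 of 12 pairs (adjusted p = 0.00096, with 0.26 in the later pairs). PHO11, an acid phosphatase, was 0.34 higher (adjusted p = 0.012) and 0.57 in the later pairs.

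**Figure D3:**
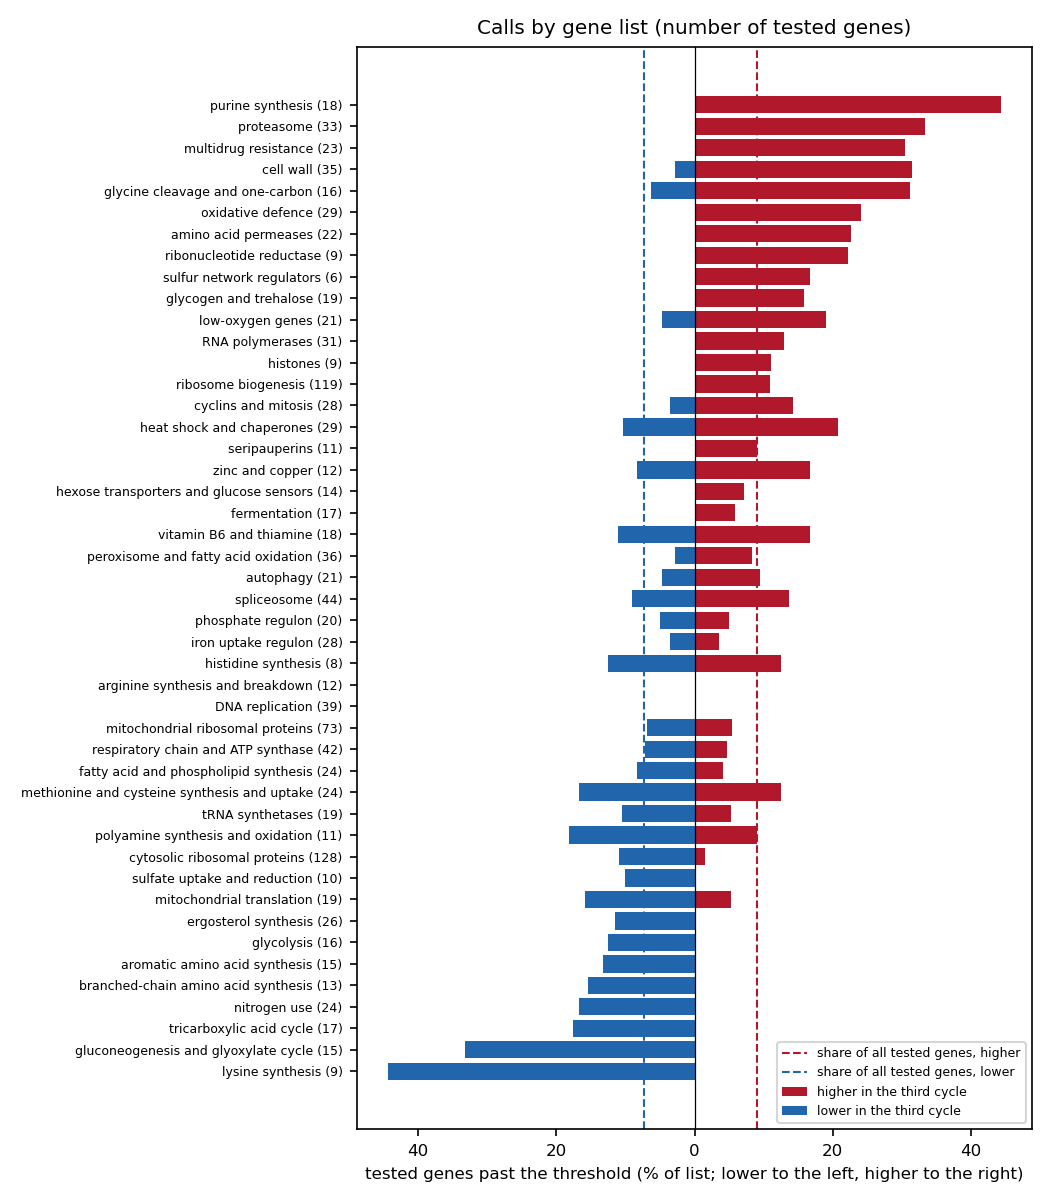
Share of each list's tested genes past the threshold (horizontal axis, %), lower in the third cycle to the left in blue and higher to the right in red, with the number of tested genes after each list's name. Dashed lines mark the shares over all tested genes, 9.06% higher and 7.37% lower; purine synthesis (44.4%) reaches farthest to the right and lysine synthesis (44.4%) farthest to the left.

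Across the 46 lists, 7 had at least 25% of their tested genes called in 1 direction: purine synthesis, the proteasome, multidrug resistance, cell wall, and glycine cleavage with one-carbon metabolism higher, and gluconeogenesis with the glyoxylate cycle and lysine synthesis lower. With arrays centred on their medians 1 list reached that share, and in the 3 later pairs 0 did. The deposited values, before any normalization, put the median difference of all tested genes at 0.186, so directions are given relative to that shift. Relative to it the medians were 0.09 for purine synthesis, 0.06 for glycine cleavage and one-carbon metabolism, 0.06 for the proteasome, 0.08 for cell wall, 0.04 for multidrug resistance, -0.18 for gluconeogenesis and the glyoxylate cycle, and -0.17 for lysine synthesis.

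By the naming rule, the largest lower differences belonged to reading frames that carry only a systematic name. YMR030W-A had 7.50, 8.84 and 9.24 (lowest, median, highest log2) in the third cycle, against 7.81, 9.92 and 11.04 in the second, lower in 11 of 12 pairs by 0.95 on the log2 scale (limma adjusted p = 0.00096). It differed by -1.20 in the spanning pairs and -0.21 in the later pairs. YLR264C-A had 8.19, 8.43 and 8.92 in the third cycle, against 8.42, 9.36 and 9.74 in the second, a difference of -0.72 (adjusted p = 0.00096), with -0.94 in the spanning and -0.08 in the later pairs. YBL005W-A differed more evenly, with 8.09, 8.68 and 9.32 in the third cycle, against 8.81, 9.22 and 9.58 in the second. All 12 pairs were lower, by 0.50 ± 0.05 on average (SE; limma adjusted p = 4.6e-05), and the later pairs by 0.38, and 29 of 32 alternatives kept the call. Its probe set, like those of YBL100W-A, YDR261C-D, YHR054C and YBL113C, is of the type shared by near-identical transcripts, so the level may be that of several genes. YIL060W differed by -0.90 and YML003W by -0.57 at low levels, with medians of 4.70 and 5.75 in the third cycle and 5.75 and 6.17 in the second; in the later pairs they were at -0.46 and -0.59. Among higher genes of the same kind, YBL113C was 0.57 higher (adjusted p = 0.0017, 0.67 in the spanning and 0.27 in the later pairs), YGR035C 0.52 (adjusted p = 0.00026, 12 of 12 pairs, 0.40 in the later pairs) and YNR014W 0.44 (adjusted p = 0.012, 0.57 in the later pairs).

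**Figure D4:**
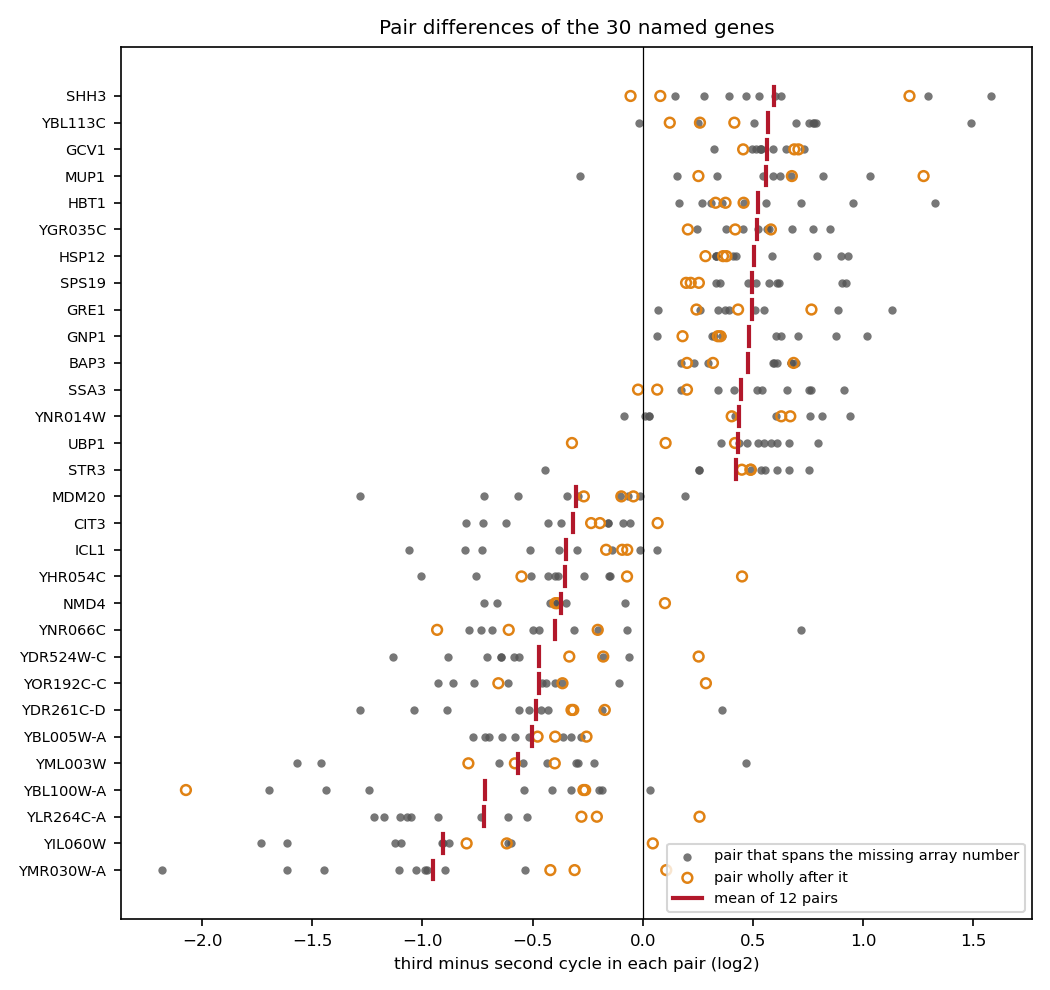
Log2 difference of each of the 12 pairs, the third cycle minus the second (horizontal axis), for the 30 genes of largest difference (rows); grey points are the 9 pairs that span the skipped array number, orange circles the 3 later pairs and red marks the mean. The circles of GCV1 sit among its grey points, whereas those of YMR030W-A and YLR264C-A lie to the right of nearly all of theirs.

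At the 52-min lag fewer probe sets passed the test of cycle shape than the test of level. That lag was chosen from cycle lengths on these arrays, so the order of the 2 counts depends on it. At a lag of 48 min 613 probe sets passed for shape and 47 for level, and at 56 min 1915 and 128. A limma F test of a 52-min cosine and sine by cycle found 11 of 5372 probe sets at an adjusted p under 0.05 (0.205%), with 846 at an unadjusted p under 0.05. The median amplitude over all tested probe sets was 0.244 in the third cycle and 0.249 in the second, and 2640 probe sets had the wider swing in the third cycle against 2732 in the second. Leaving out 1 pair changed the count to between 2 and 22, and leaving out any of pairs 2, 3, 4, 5, 7, 8 or 11 moved it by over 1.5 times, so the count is unstable.

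DAL4, MEP2 and LYS9 swung more widely in the third cycle. The allantoin permease DAL4 had an amplitude of 1.03 in the third cycle and 0.57 in the second (adjusted p of the F test = 0.007), with 10.28, 12.42 and 13.04 (lowest, median, highest log2) in the third cycle, against 10.91, 12.52 and 13.02 in the second. MEP2, the high-affinity ammonium permease, had amplitudes of 1.21 and 0.78 (adjusted p = 0.035), with a trough of 10.70 in the third cycle, against 11.06 in the second. LYS9 had amplitudes of 1.47 and 1.12 (adjusted p = 0.014). In each of the 3 the peaks were alike and the third-cycle trough was lower. In order of time, DAL4 averaged 12.34 ± 0.24 over the control arrays, 12.41 ± 0.30 over the opening phenelzine arrays, 12.32 ± 0.63 in the second cycle and 12.15 ± 0.89 in the third (SD over arrays), with a larger spread in each later set.

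Other genes were flatter in the third cycle. GCV2 had amplitudes of 0.15 in the third cycle and 0.40 in the second (limma F test adjusted p = 0.007), AIM34 0.30 and 0.66 (adjusted p = 0.042), and AAD10, of the aryl-alcohol dehydrogenase family, 0.23 and 0.47 (adjusted p = 0.035). TIM8, a chaperone of the mitochondrial intermembrane space, changed its time course most. It ran from 10.09 to 11.26 in the third cycle, with a cosine peak at 8.8 min, against 9.59 to 10.83 in the second, with a cosine peak at 39.9 min (adjusted p = 0.023). From 4 to 28 min after the first array of the cycle TIM8 was 0.66 to 1.32 higher in the third cycle, and in the 3 later pairs it was -0.29. MSC1 had amplitudes of 1.40 and 1.37 and peaked at 6.4 min in the third cycle and 8.5 min in the second (adjusted p = 0.023). The remaining calls were VOA1, ILV3 and RPS15, with amplitudes of 0.07, 0.40 and 0.31 in the third cycle and 0.27, 0.31 and 0.31 in the second.

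**Figure D5:**
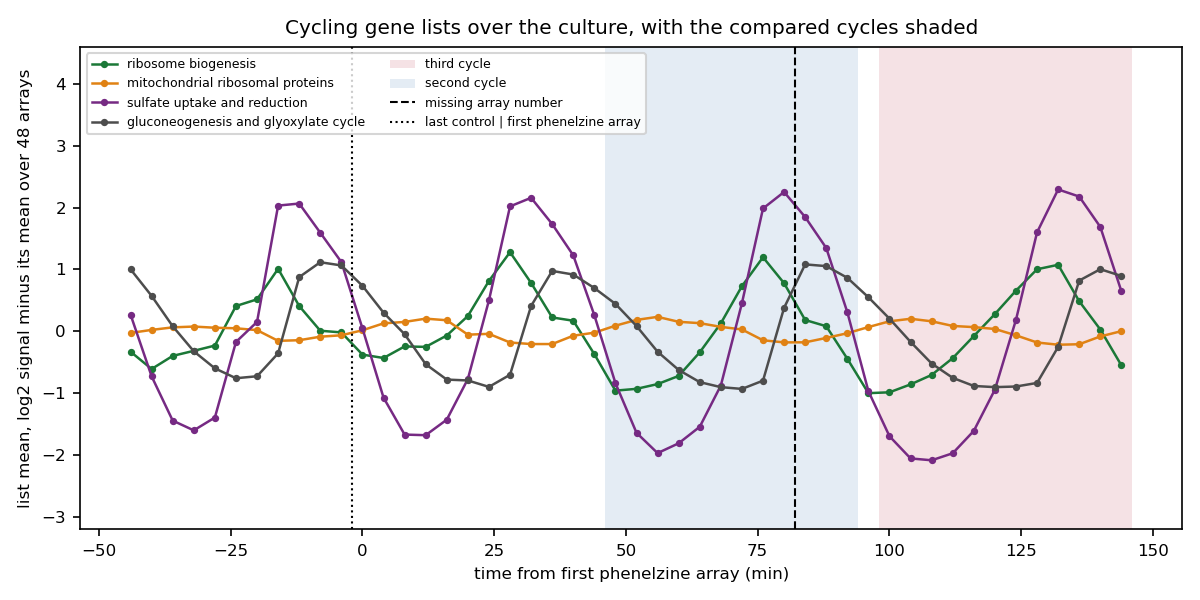
Mean log2 level of 4 gene lists, each minus its own mean over the 48 arrays (vertical axis), against time from the first phenelzine array (horizontal axis, min); red shading marks the third cycle and blue the second, and the dashed line the skipped array number. Sulfate uptake and reduction has its highest array at 132 min in the third cycle and at 80 min in the second, and ribosome biogenesis at 132 and 76 min.

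The order of the lists within the cycle, which the choice of the lag used, is given as a description. In the third cycle ribosome biogenesis, sulfate uptake, purine synthesis and glycine cleavage all had their highest array at 132 min, and in the second ribosome biogenesis was highest at 76 min and the other 3 at 80 min. Gluconeogenesis and the glyoxylate cycle were highest at 140 min in the third cycle and 84 min in the second, and lysine synthesis at 144 and 92 min. Glycogen and trehalose, at 100 and 52 min, were highest early in both. The arrays at 144 and 92 min are the last of each cycle as taken here, and that at 100 min is the first of the third. For lists highest there, the peak may lie outside the arrays compared. Peak to trough, the sulfate list spanned 4.38 in the third cycle and 4.23 in the second on the log2 scale, ribosome biogenesis 2.06 and 2.16, gluconeogenesis 1.91 and 2.02, and purine synthesis 1.03 and 0.76.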

How the data were processed

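RNA from 48 time points was labelled and hybridised to Affymetrix Yeast 2.0 arrays. The authors deposited 1 linear intensity per probe set and array (10928 probe sets), computed in GCOS according to the submitters' processing notes (no version); scale and centring stay unknown. Signals under 1 were set to 1, log2 values were quantile normalized over all arrays, and 5372 of 5498 budding yeast probe sets (5332 genes) above the 90th percentile of 1747 fission yeast probe sets were tested, leaving 126 out as dim. Names came from the platform annotation, updated through the RefSeq gene table. Tests used limma 3.58.1 in R 4.3.3 (eBayes with a mean-variance trend, Benjamini-Hochberg adjusted p under 0.05) with the pair as a block; pairs share a position in the cycle, not an extract. The rhythm test was an F test of cosine and sine terms with a 52-min period. Per gene the probe set of highest mean was used. Plots came from matplotlib 3.10.9 (Python 3.11.15). Tests were checked on simulated data with independent noise on each array. Those data held no correlation between neighbouring pairs and no phase difference within pairs, so the check does not cover either.

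The pairs, lists and settings were chosen with earlier results of these data known. Genes named with values are the 15 largest differences each way among calls of that sign in at least 11 of 12 pairs, the 8 largest rhythm differences, and up to 3 called members of each list by size (1 where none passed). Other members of small counts, and VOA1, RPS15, YCT1 and those differing between spanning and later pairs, were named after their values were seen. Alternatives were other scalings, filters and variance models, a pseudocount of 50, lags of 48 and 56 min, subsets of pairs, measured phase, periods and array name suffix. The term for spanning against later pairs was added after the data were seen. The number of arrays limits the precision.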

Additional observations from a re-analysis of the deposited data

Results flagged for a closer look

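A term for the 9 spanning against the 3 later pairs in the paired limma fit passed for 5 of 5372 probe sets (0.0931%), with 807 at an unadjusted p under 0.05. Spanning minus later, the difference between cycles was -0.33 for HRI1, -0.49 for MXR1, -0.56 for PRP42, -0.81 for VBA2 and -0.86 for YLR264C-A, with adjusted p from 0.041 to 0.042. In each the third cycle was lower in the spanning pairs. In the later pairs the difference was 0.05 for HRI1, 0.32 for the methionine sulfoxide reductase MXR1, 0.28 for the U1 small nuclear ribonucleoprotein gene PRP42, 0.56 for the vacuolar amino acid transporter VBA2 and -0.08 for YLR264C-A. The later pairs also lie at the end of the cycle, so the skipped number and the position in the cycle cannot be told apart for these genes.

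Outside the yeast genes, the dap 3′ to 5′ log2 ratio averaged, in order of time, 1.55 ± 0.133 on control arrays (SD, n = 11), 1.80 ± 0.301 on second-cycle arrays and 2.45 ± 0.22 on third-cycle arrays (SD, n = 12 each), above the control level. The ratio of another spiked transcript, phe, averaged 1.07 ± 0.202, 1.14 ± 0.204 and 1.58 ± 0.363 on the same sets. For the spiked transcript lys it averaged 0.595 ± 0.164, 0.732 ± 0.42 and 1.07 ± 0.329, and for the yeast gene ACT1 0.421 ± 0.0932, 0.338 ± 0.187 and 0.428 ± 0.132.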

How the results depend on the processing

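The 883 level calls, 7 lists and 11 rhythm calls depended most on pairing, scaling and the skipped array number. As deposited there were 1856 level calls, 1848 of them higher (99.6%, against 54.9% in the reported fit), 38 lists and 174 rhythm calls; with arrays centred on their medians 518, of which 41.1% were higher, 1 and 1. Without the replicate block there were 17 level and 0 rhythm calls (453 unadjusted in each), at a lag of 48 min 47, 0 lists and 613 rhythm calls, and at 56 min 128, 0 and 1915. Odd pairs gave 18 level calls, even pairs 11, windows of 3 pairs as a random block 318, the 3 later pairs 2 with 0 lists, arrays after the skipped number as a covariate 2, and pairs with no array of suffix 02 244 with 6 rhythm calls. The 9 spanning pairs gave 88 rhythm calls, and no mean-variance trend 0 (803 unadjusted). Leaving out 1 pair gave 626 to 1036 level calls and 2 to 22 rhythm calls, and all but 30 of 132 named calls held without each pair in turn. Those lost without at least 1 pair included YNR066C, MDM20, TIM8, SUL1, MET2, HSP26, TPO1 and MEP2.

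As deposited, where the median of all genes shifted by 0.186, the signs of MSM1 (0.032), ATP17 (0.088), ACO1 (0.173), HXK2 (0.032), PYK2 (0.057), LYS21 (0.108), LEU1 (0.022), ILV3 (0.091), TYR1 (0.064), ERG13 (0.018), MVD1 (0.048), ERG26 (0.065), CKI1 (0.049), SPE3 (0.092), PDX3 (0.02), RPL12A (0.028), RPS17B (0.105), RPS1A (0.058), VAS1 (0.069), SES1 (0.126) and LSM6 (0.025) turned positive, each at a value below that shift. In the 3 later pairs, and with arrays after the skipped number as a covariate, signs turned for TIM8 (-0.287), LYS9 (0.031), SFC1 (0.02), SUL1 (0.235), SER3 (0.101), LYS12 (0.015), HIS7 (-0.034), RPN10 (-0.002), ZRT2 (-0.036), CPT1 (0.119), TPO1 (-0.028), SPE3 (0.05), RPS1A (0.002), MRP2 (0.102), SMD2 (0.009) and LSM6 (0.054), and with the measured phase for MET2 (-0.02); the cause was not tested. With the pair as a block, the covariate for the skipped number leaves the difference to the 3 later pairs. Those pairs alone and the covariate fit therefore give the same estimates and are not separate checks. The quantile scaling of budding yeast probe sets alone, a pseudocount, both filters, robust variances, cosine terms and periods of 48 and 56 min moved no count by over 1.5 times.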
